A study of Danio rerio with 50 samples.

Results

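The proteasome subunit genes were taken as every gene whose name, ignoring case, begins with psma, psmb, psmc, psmd, psme, psmf or psmg, and 57 of the 29033 genes in the count tables met this rule. Their values were examined in single zebrafish (Danio rerio, strain Tu/TLF) olfactory sensory neurons (OSNs) and in bulk OSN libraries, with one question in view: whether psmc5, a gene the study had singled out on these same cells as a clade A gene, was followed by the genes for the other subunits. The study isolated 47 single OSNs on a microfluidic chip by sorting cells positive for RFP from larvae at 48 h post fertilization that carried an RFP transgene under the promoter of OMP, a gene of mature OSNs. The 3 bulk libraries, by the study's methods, each came from about 1000 cells sorted for RFP and for Citrine driven from an or111-7 transgene, and so were selected for one OSN population rather than all OSNs. The study counts or111-7 among its clade A odorant receptors. It reported these libraries nearest its clade A cells, on genes chosen on the single cells, psmc5 among them. All groups share the OMP:RFP reporter.

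The proteasome degrades proteins that carry ubiquitin. Its barrel-shaped core is made of stacked rings of alpha subunits (psma genes) and beta subunits (psmb genes), and psmb5, psmb6 and psmb7 carry the catalytic sites. A regulatory particle caps the barrel, and in it a ring of ATPases (psmc genes, psmc5 among them) unfolds the substrate while non-ATPase subunits (psmd genes) bind and trim ubiquitin. In immune cells psmb8, psmb9 and psmb10 replace the constitutive catalytic subunits, psmb11 does so in the mammalian thymus, psme genes encode alternative caps, psmf1 an inhibitor, and psmg1 to PSMG4 with psmd5, psmd9 and psmd10 encode assembly chaperones. Because the subunits are built into one particle in fixed proportion, their genes are often expressed together in yeast and mammals.

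By component, the 57 genes were 9 alpha, 7 constitutive beta, 6 immune-type beta, 7 ATPase, 14 non-ATPase, 7 chaperone, 5 activator and 1 inhibitor gene, together with psmc3ip, which the name rule includes although its product is a meiotic recombination factor and not a subunit. The labels name the spike-in set of each cell (Fluidigm, 14 cells; ERCC, 33 cells) but no cell state, so cells were classed by marker genes. A cell with gng8 and gap43, genes of immature OSNs, at 20 CPM (counts scaled to one common library total) or more in sum was called immature-like, and any other cell was placed in clade A, B or C by its most abundant odorant receptor (OR) of at least 20 CPM. This gave 9 clade A, 10 clade B, 10 clade C, 13 mature-like cells without an OR and 5 immature-like cells. The spike-in set split these classes unevenly, with 5 Fluidigm cells of 9 in clade A, 3 of 10 in each of clades B and C, 2 of 13 without an OR and 1 of 5 immature-like. The labels do not give the larva each cell came from, so p-values measure the spread between sums of cells only.

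Single cells had 6951519 to 30192554 counts in total, and bulk libraries had 2651985 to 6250589. Counts came from amplified cDNA without molecular identifiers and so are reads, not molecules. Defining mature OSN genes (6 of 7 listed genes were present, such as ompb and gnal) had median sums of 6394 CPM (clade A), 3979 CPM (clade B), 5924 CPM (clade C) and 3986 CPM (cells without an OR), against 138 CPM in immature-like cells. In 3 cells classed as mature this sum was far lower: 2.76 CPM in the clade A cell s18930, 53.4 CPM in the clade B cell s20565 and 1.62 CPM in the OR-negative cell s20534, all from the Fluidigm set, whereas the lowest of the other cells in these classes had 1239 CPM. These 3 cells stand apart from their class, and several results that rest on them are given with and without them.

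The gene psmc5 was present in most clade A cells and in few others. Within clade A it measured 139.4, 968.6, 13.6, 0 and 0.155 CPM in the 5 Fluidigm cells and 54.9, 32.6, 0 and 91.8 CPM in the 4 ERCC cells. Values in the 10 clade B cells had a lowest and a median of 0 CPM and a highest of 19.1 CPM, and in the 10 clade C cells the highest was 0.507 CPM. The cells without an OR had a median of 0 CPM with a single cell (s23566) at 2429 CPM, and immature-like cells had 55.8, 0.402, 0.0632, 0 and 0 CPM. The clades overlapped, since 3 clade A cells were at the level of clades B and C. Counted at 100 reads or more, psmc5 was held by 6 of 9 clade A, 1 of 10 clade B, 0 of 10 clade C, 1 of 13 OR-negative and 1 of 5 immature-like cells. The highest clade A cell and the only clade B cell with psmc5 were s18930 and s20565, the cells low in mature OSN genes, and without them the counts were 5 of 8 clade A cells and 0 of 9 clade B cells. Since the study chose psmc5 for this pattern on these cells, its clade difference is a description, and no test is given for it.

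**Figure D1:**
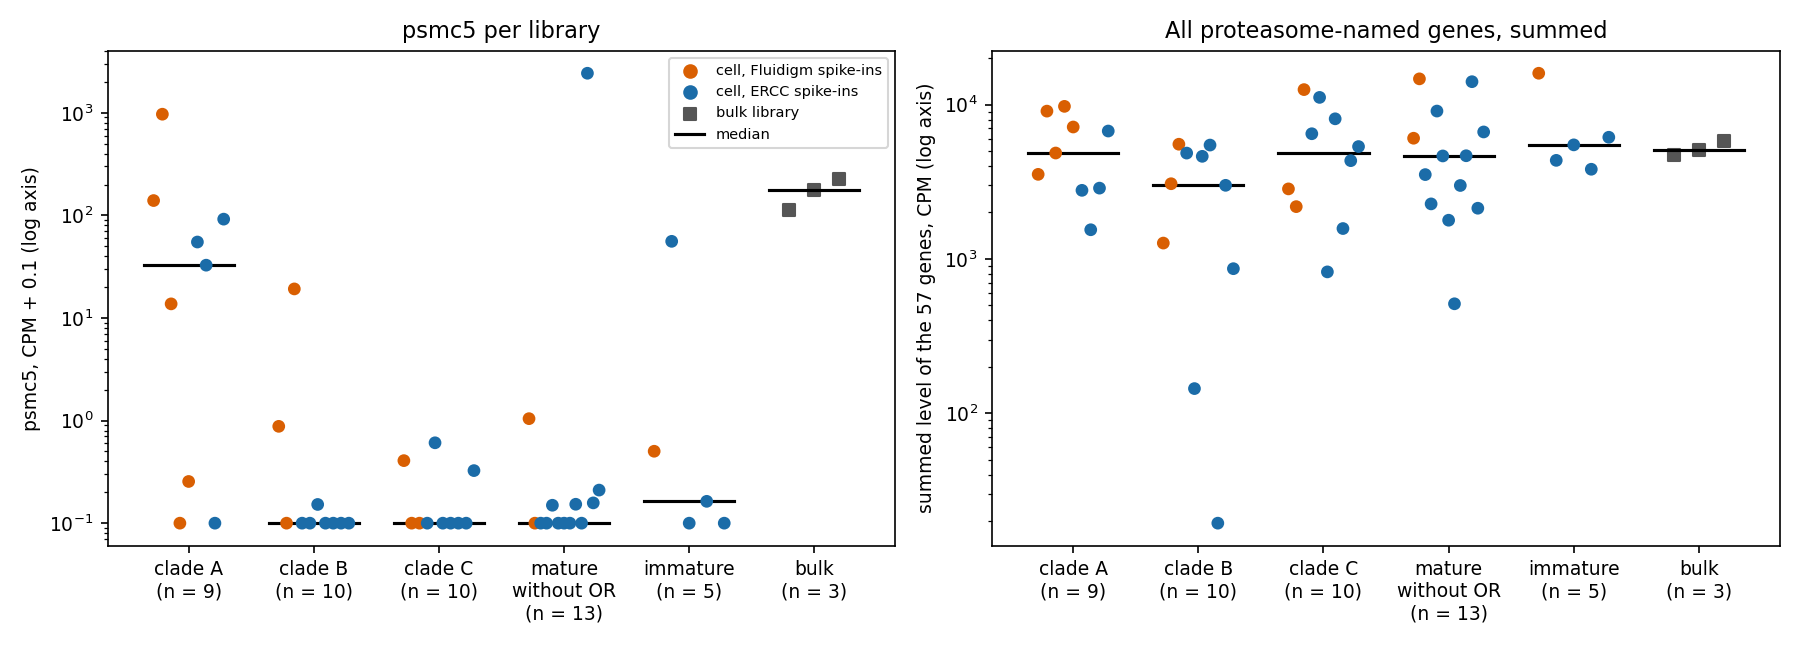
Level of psmc5 (left, CPM + 0.1) and summed level of the 57 proteasome-named genes (right, CPM) in each library, on log axes, by cell class and in bulk, where points are libraries coloured by spike-in set and bars are medians. The psmc5 values of clade A had a median of 32.6 CPM and those of the other cell classes lay mostly at or near 0, while the summed levels of all classes overlapped.

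The other ATPase genes did not share this pattern of cells. psmc6 was held at 100 reads by 4 of 9 clade A, 3 of 10 clade B and 4 of 10 clade C cells, and psmc4 by 4, 2 and 2 cells of the same classes. psmc1a was held by 3 of 9, 1 of 10 and 2 of 10 cells and psmc2 by 3, 3 and 1. psmc3 went the other way from psmc5: its highest clade A value was 0.131 CPM, against 125 CPM for clade B cells and 1771 CPM for clade C cells, with 0, 1 and 3 cells at 100 reads. Of the 7 OR-expressing cells with psmc5, 4 also held psmc6, 2 held psmc2, 2 held psmc4 and none held psmc1a or psmc3 at 100 reads. The ATPase ring needs 6 different subunits, and no cell of the 47 held reads of all 6 at this level (psmc1a and psmc1b counted as one). Likewise no cell filled all 7 alpha or all 7 beta positions. A tested member was held by a median of 9 of the 47 cells, where all genes tested gave 7. Clade A cells filled a median of 3 ATPase positions, clade B cells 0.5, clade C cells 1, OR-negative cells 1 and immature-like cells 3. Since psmc5 itself was chosen for its presence in clade A, the count without it is the one to read: ATPase genes other than psmc5 numbered a median of 2 (0 to 3) per clade A cell, 0.5 (0 to 3) per clade B cell, 1 (0 to 4) per clade C cell, 1 (0 to 3) per OR-negative cell and 2 (1 to 3) per immature-like cell, with overlapping ranges.

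The catalytic beta genes differed among themselves. psmb7 had the widest presence of all 57 genes, with 28 of 47 cells at 100 reads, among them all 5 immature-like cells (49.9 to 2738 CPM) and 10 of 13 cells without an OR, against 6 of 9 clade A, 4 of 10 clade B and 3 of 10 clade C cells. psmb6 was held by 1 of 9 clade A, 0 of 10 clade B and 5 of 10 clade C cells, 6 of 13 cells without an OR and 4 of 5 immature-like cells. psmb5 was held by 2 cells of each clade, by no OR-negative cell and by 1 immature-like cell. psmb4, a non-catalytic beta subunit, had 0, 314 and 2846 CPM as lowest, median and highest in clade A, against 0, 0.156 and 790 CPM in clade B and 0, 0.462 and 27.3 CPM in clade C. The alpha gene psma1 was held by 4 clade A cells (up to 472 CPM) and 4 clade B cells (up to 1284 CPM), and no clade C cell exceeded 0.832 CPM.

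**Figure D2:**
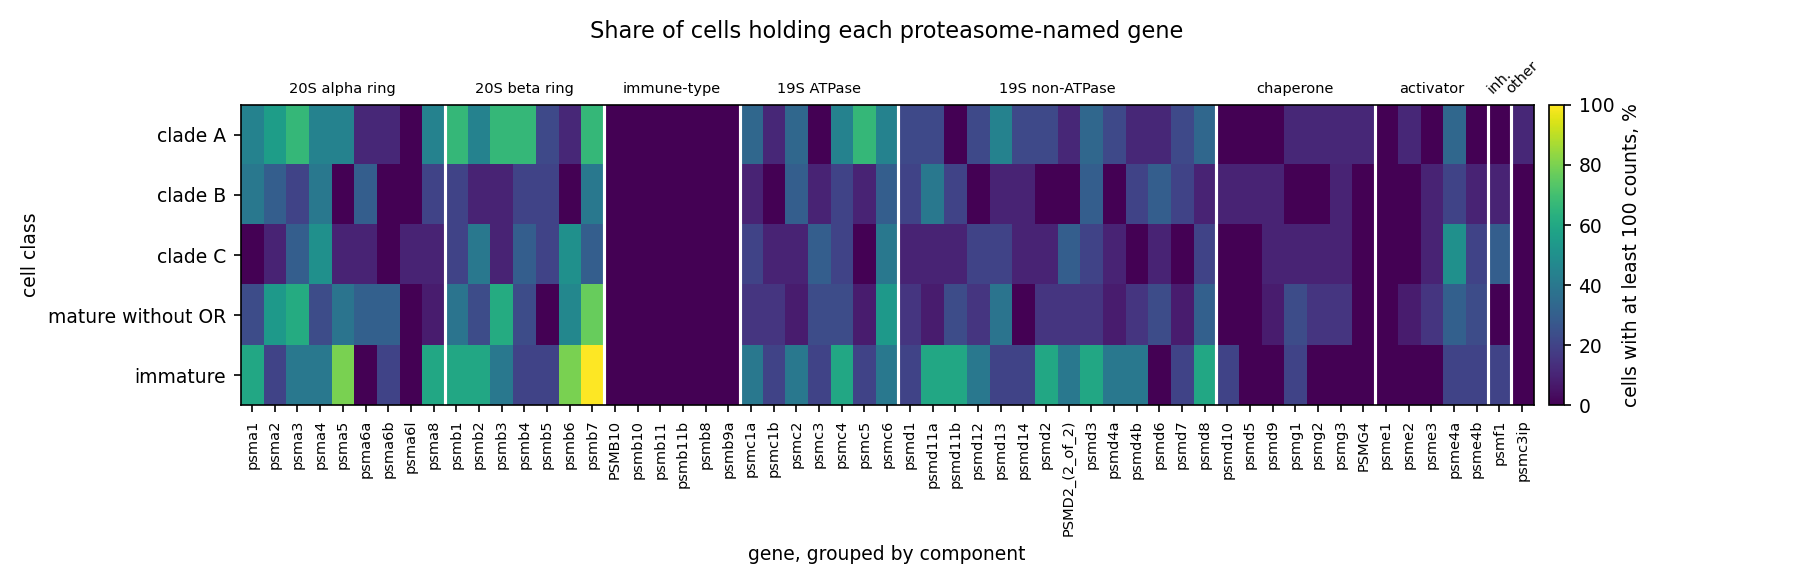
Share of cells with at least 100 counts (colour, 0 to 100%) for each of the 57 genes (columns, grouped by component) in the 5 cell classes (rows). psmb7 was held by all 5 immature-like cells, psmc5 by 6 of 9 clade A cells, and no cell held any of the 6 immune-type genes at this level.

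Presence of a member was close to all or none. Over the 2679 pairs of a member and a cell, 52.8% had 0 counts, 24.6% had 1 to 9, 4.59% had 10 to 99 and 18.03% had 100 or more. For the members that passed the low-count filter over 47 cells these shares were 41.8%, 29.6%, 5.56% and 22.97%, and for all genes that passed it they were 46.1%, 27.6%, 5.37% and 21.01%. A single member made up a median of 37.1% (13.7 to 98.5%) of the summed proteasome reads of a cell, and 20 different genes took that leading place across the 47 cells. The cells shared by the 6 pairs of paralogous copies are given as a description. Each copy was held by few cells and the overlap of other gene pairs was not computed, so small overlaps carry no weight by themselves. psmc1a was held by 10 cells and psmc1b by 5 with none in common, psma6a by 9 and psma6b by 6 with 1 in common (11.1% and 16.7% of each), and psmd11a by 11 and psmd11b by 9 with 3 in common (27.3% and 33.3%). psmd4a was held by 6 cells and psmd4b by 7 with 2 in common (33.3% and 28.6%), psme4a by 15 and psme4b by 7 with 3 in common (20% and 42.9%), and psmd2 and PSMD2_(2_of_2) by 8 cells each with 4 in common. Reads of near-identical copies may be split by the counting, so their separate values are uncertain, as are those of psmb10 and PSMB10.

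The number of members held per cell at 100 reads had a lowest, median and highest of 9, 13 and 20 for clade A, 1, 7.5 and 17 for clade B, 2, 9.5 and 12 for clade C and 1, 11 and 25 for cells without an OR, while the 5 immature-like cells held 11, 19, 10, 22 and 17. Without the 3 cells low in mature OSN genes the medians were 12 (clade A), 7 (clade B) and 10.5 (OR-negative cells). Depth moved with this number: across the 29 OR-expressing cells, which share 2 chip runs and differ in total counts, the number of members correlated with total counts at r = 0.75 (rho = 0.72), and median totals were 19117628 reads in clade A against 15456600 in clade B. Its part in the differences was not tested. The summed level of the 57 genes had a median of 4854 CPM (1545 to 9737) for clade A, 3034 CPM (19.4 to 5534) for clade B, 4838 CPM (824 to 12503) for clade C, 4646 CPM (512 to 14678) for OR-negative and 5482 CPM (3810 to 15958) for immature-like cells. These ranges overlapped in every pair of classes. Across the 29 OR-expressing cells the summed level also correlated with total counts, at r = 0.58 (rho = 0.54). The part of depth in the summed levels was not tested.

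For tests between classes, counts were summed over the cells of each class and spike-in set, which gave 2 sums per class, and the sums were fitted over all genes with edgeR's quasi-likelihood test. A gene entered when at least 3 cells had 100 counts or more, and 38 members passed over the 29 OR-expressing cells (66.7%, against 19.4% of all genes) and 44 over all 47 cells (77.2%, against 27.2%). A member that passed only through the class where it is high had to differ between classes, so the counts over tested members carry no weight by themselves. For clade A over the mean of clades B and C, no member passed an adjusted p of 0.05, in a comparison in which 0.0178% of all genes were called. At an unadjusted p under 0.05 there was 1 member, psmb4, against 5.05% of all genes. Its reads averaged 921 CPM in the Fluidigm and 339 CPM in the ERCC cells of clade A, against 1.51 CPM and 60.9 CPM in clades B and C, and its fitted log2 fold change was 5.89 (SE 2.71, edgeR adjusted p = 0.755). DESeq2 on the same sums called 7 members, 3 higher and 4 lower in clade A, where it called 14.2% of all genes, and psmc5, which was chosen on this contrast, was one of them. The median log2 fold change was 1.33 over the 38 members and 0.33 over all genes tested. This median was 1.26 without the cells low in mature OSN genes and was -2.72 without the Fluidigm sum of clade A, where that of all genes was -0.77.

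The members with the largest clade A differences of one sign in both spike-in sets ran in both directions. In these clade comparisons a mean over a pair of clades gives each clade equal weight. psma5, an alpha subunit, averaged 28.8 CPM in Fluidigm cells and 82.99 CPM in ERCC cells of clade A, against 0.132 CPM and 0.666 CPM in clades B and C (log2 fold change 7.49, SE 4.12, edgeR adjusted p = 0.755). It was held by 4 of 9 clade A cells and by 1 of 20 others, so that clade A cells again overlapped the rest. psmd11b, a scaffold subunit of the lid, averaged 0.516 CPM and 0.0132 CPM in clade A, against 36.3 CPM and 157.6 CPM in clades B and C (log2 fold change -7.19, SE 5.19, edgeR adjusted p = 0.774). The averages of clades B and C came mostly from 1 clade B cell in each set. psmc3 (log2 fold change -9.94, SE 6.09, edgeR adjusted p = 0.755) and the inhibitor psmf1 were lower in clade A in both sets, but in the Fluidigm set psmc3 averaged 0.0263 CPM for clade A and 0.0421 CPM for clades B and C, and psmf1 averaged 0 and 0.00844 CPM for the same classes, so the difference came from ERCC cells. psmf1 reached 1755 CPM in 1 clade C cell and at most 0.0540 CPM in clade A.

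Set by set, the clade A difference was not of one direction. Of the 37 tested members other than psmc5, 7 had a higher mean CPM in clade A in both spike-in sets (18.9%, against 18.5% of all genes tested) and 11 a lower one (29.7%, against 32.2%). Among the other tested ATPase genes only psmc6 was higher in both sets, and its ERCC mean in clade A came almost wholly from s23574 (2743 CPM). The median log2 difference over these 37 was 0.95 in Fluidigm cells and -1.60 in ERCC cells. By mean CPM over cells, 16 of the 38 members were highest in clade A, 6 in clade B and 16 in clade C (42.1%, 15.8% and 42.1%), where all genes tested gave 35.2%, 31.6% and 33.2%. The 16 of clade A include psmc5, which the study chose on these cells.

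**Figure D3:**
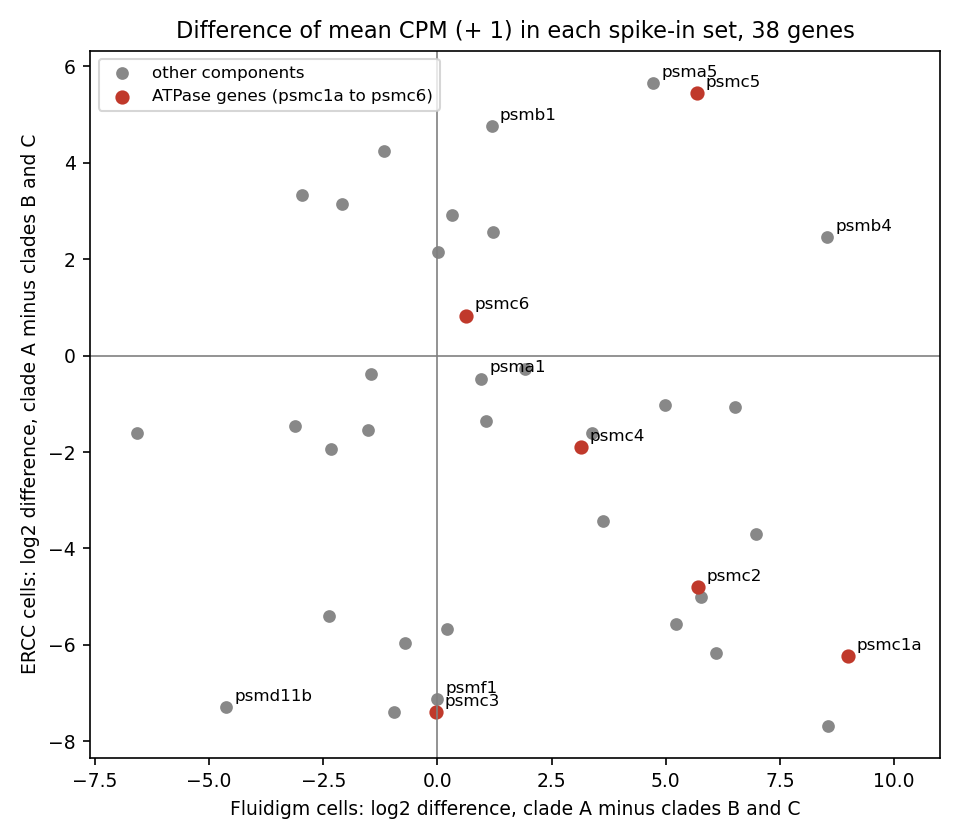
Log2 difference of mean CPM (+ 1), clade A minus the mean of clades B and C, for 38 tested genes in Fluidigm cells (x axis) and in ERCC cells (y axis), with the ATPase genes in red. psmc5 and psma5 lie at the upper right with differences above 4 in both sets, and psmc1a, psmc2 and psmc4 lie at the lower right, higher in one set and lower in the other. psmc6 was higher in clade A in both sets, by far less than psmc5.

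The other clade contrasts likewise gave no called member in edgeR (0.0178% of all genes called in each). For clade B over clades A and C no member had an unadjusted p under 0.05 (5.19% of all genes did), DESeq2 called 4 members (17.5% of all genes), and the median log2 fold change was -0.43 over members and 0.26 over all genes. psmd12, a lid subunit, averaged 0.152 CPM and 0.608 CPM in the Fluidigm and ERCC cells of clade B, against 580 CPM and 6.08 CPM in clades A and C, where 1 clade C cell (s20595) had 2941 CPM (log2 fold change -8.36, SE 4.34, edgeR adjusted p = 0.727). psmd11b ran the other way, at 72.5 CPM and 291 CPM in clade B, against 0.312 CPM and 11.96 CPM in clades A and C (log2 fold change 7.09, SE 3.88, edgeR adjusted p = 0.727). Each of these clade B averages came almost wholly from 1 cell, at 217 CPM in the Fluidigm set and 2038 CPM (s23555) in the ERCC set. psmd11b was held by 3 of the 29 OR-expressing cells. The ubiquitin receptor psmd4a (log2 fold change -8.88) and the scaffold psmd2 (-6.62) were lower and psma1 (5.92) higher in clade B, all with an edgeR adjusted p of 0.727 or more.

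For clade C over clades A and B, psmd12 (log2 fold change 6.95, SE 3.06) and psmf1 (8.81, SE 4.296) had unadjusted p-values under 0.05, as did 5.51% of all genes, and both had an edgeR adjusted p of 0.738. psmd12 did not hold its direction in both sets, and psmf1 was near absent from the Fluidigm set. psmd12 averaged 1091 CPM in the Fluidigm cells of clade C, against 34.3 CPM in clades A and B, but 0.00805 CPM in its ERCC cells, against 6.38 CPM. psmf1 averaged 269 CPM in the ERCC cells of clade C, against 7.46 CPM in clades A and B, but 0 CPM in its Fluidigm cells, against 0.00844 CPM. No Fluidigm cell with an OR exceeded 0.0507 CPM of psmf1, so that set gives no direction for it. In a fit blocked by spike-in set, 0 members had an unadjusted p under 0.05. DESeq2 called 8 members (16.6% of all genes), and psmc5, which the study chose on the same cells, was among them. psma1 averaged 0.417 CPM and 0.0505 CPM in the Fluidigm and ERCC cells of clade C, against 132 CPM and 224 CPM in clades A and B (log2 fold change -9.53, SE 5.06, edgeR adjusted p = 0.738). psmc3 averaged 333 CPM in the ERCC cells of clade C, against 8.97 CPM in clades A and B, but in the Fluidigm set it was at 0.0621 CPM and 0.0242 CPM. psmd4b (log2 fold change -8.82) and psmb4 (-5.49) were lower in clade C in both sets. The median log2 fold change was 0.80 over members and 0.33 over all genes tested, and with the block it was -0.99 and 0.087.

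Mature-like cells with an OR were also set against immature-like cells, and OR-negative cells against those with an OR. edgeR called 0 of 44 members in either contrast and 0% of all genes. Even gap43, which helped define the immature-like class, was not called (log2 fold change -11.7, edgeR adjusted p = 0.618). An absent call here thus does not show an absent difference. At an unadjusted p under 0.05 edgeR gave 0 members (2.19% of all genes) in the first contrast and 1 member, psme4b (1.01% of all genes), in the second, or 0 members when blocked by set. DESeq2 called 8 members in the first contrast, all lower in cells with an OR (16.1% of all genes, 578 higher and 695 lower). The Fluidigm immature-like sum was 1 cell, s20535. In the ERCC set psma5, psma8, psmd11a and psmd11b averaged lower in OR cells than in immature-like cells. There psma1, psma2, psmb7 and psmc6 averaged higher, such as psma2 (76.7 against 0.0285 CPM) and psmc6 (452 against 33.8 CPM). DESeq2 called 9 members in the second contrast, 7 of them higher in OR-negative cells (6.83% of all genes). The median log2 fold change over members was -0.58 for OR cells over immature-like cells, where that of all genes was 1.65 (0.87 and 4.18 with the block), and 0.93 for OR-negative over OR cells, where that of all genes was -0.55. The second of these medians was -1.33 without the cells low in mature OSN genes, where that of all genes was -1.03, so its direction rested on those 3 cells, among them s20534, the OR-negative cell with most members (25).

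Among single members, psma8, an alpha subunit, averaged 48.7 CPM and 20.1 CPM over the 11 Fluidigm and 18 ERCC cells with an OR, against 1940 CPM in the 1 Fluidigm cell and 128.9 CPM over the 4 ERCC cells that were immature-like (log2 fold change -6.14, SE 3.51, edgeR adjusted p = 0.618). psmd1, a scaffold of the regulatory particle, averaged 195 CPM and 160.4 CPM over the same cells with an OR, against 0.172 CPM and 2.95 CPM in immature-like cells (log2 fold change 6.82, SE 5.31, edgeR adjusted p = 0.640). The averages of OR cells rested on few of them, with highest values of 2062 CPM (Fluidigm) and 1654 CPM (ERCC). psmd1 was held by 5 of the 29 OR-expressing cells. psma6a (log2 fold change 7.14), psmd6 (7.73) and the chaperone gene psmd9 (10.49) were higher in OR cells in both sets. In the ERCC set psmd6 averaged only 2.18 CPM in OR cells, against 0 CPM in immature-like cells. psmd9 rested on 1 cell, s20565, one of the 3 low in mature OSN genes, which had 1586 CPM: the 11 Fluidigm cells with an OR averaged 162 CPM, the 9 without the low cells 21.6 CPM, and the ERCC cells with an OR 0.00294 CPM. In the second contrast psme4b, an activator cap, averaged 1304 CPM over 2 Fluidigm cells and 27.4 CPM over 11 ERCC cells without an OR, against 4.88 CPM and 1.44 CPM in OR cells (log2 fold change 9.05, SE 4.19, edgeR adjusted p = 1). The Fluidigm average came from s20534 alone (2608 CPM, the other cell being at 0), and the log2 fold change was 1.77 without the cells low in mature OSN genes. The activator gene psme3 (log2 fold change 8.58) and psmd2 (7.69) were higher in OR-negative cells, and without the same cells they were 4.90 and -1.56. The deubiquitinase gene psmd14 and the inhibitor psmf1 did not exceed 0.0689 CPM and 0.138 CPM in any OR-negative cell, against 1426 CPM and 1755 CPM in the highest cells with an OR. Each was held by only 4 of the 29 OR-expressing cells, and the Fluidigm cells with an OR averaged 0.653 CPM and 0.00461 CPM. Absence from the fewer OR-negative cells thus shows no clear difference.

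Across the 29 OR-expressing cells, the correlation of each member with psmc5 was taken on log2(CPM + 1) as a description. These cells share 2 chip runs, differ in depth and belong to 3 clades. Over the 37 other tested members the median r was 0.043 (-0.29 to 0.55), against a median of -0.0046 over 5622 genes. 22 of the 37 (59.5%) had r above 0, as did 49.0% of all genes. The highest were psmb1 (r = 0.55), psma5 (0.54), psma2 (0.45), psmd8 (0.41) and psmd11a (0.40), and 46 genes outside the members exceeded psmb1. Without the cells low in mature OSN genes the same genes had r = 0.36, 0.41, 0.25, 0.15 and 0.12, and psmb3 was then highest (0.49, against 0.30 with all cells). The lowest were psmd3 (-0.29), psmc1a (-0.23), psmd6 (-0.22), psmf1 (-0.20) and psmg3 (-0.19). Of the partners of psmc5 in the ATPase ring, psmc1a was thus among the lowest, psmc6 had r = 0.13, psmc2 0.045, psmc4 -0.16 and psmc3 -0.19.

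The 2 spike-in sets ordered the members differently. The median r was 0.14 in the 11 Fluidigm cells and -0.16 in the 18 ERCC cells, and psmd11a had r = 0.94 in the first set and -0.23 in the second. psmb1 had r = 0.27 and 0.91 and psma5 had 0.69 and 0.43 in these sets. Both were picked as the highest over the cells of the 2 sets together, so values above 0 in each set carry no weight by themselves. The counts that follow for these 2 genes describe the same cells. Of the 7 OR-expressing cells with psmc5 at 100 reads, 6 held psmb1 (85.7%), which was held by 10 OR-expressing cells in all (60.0% of these had psmc5), and 3 held psma5 (42.9%), which was held by 5 (60.0%). With class means removed the median r was 0.018, and without the cells low in mature OSN genes it was -0.088. The mean r over all pairs of the 38 members was 0.042, against 0.017 over all pairs of genes tested.

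**Figure D4:**
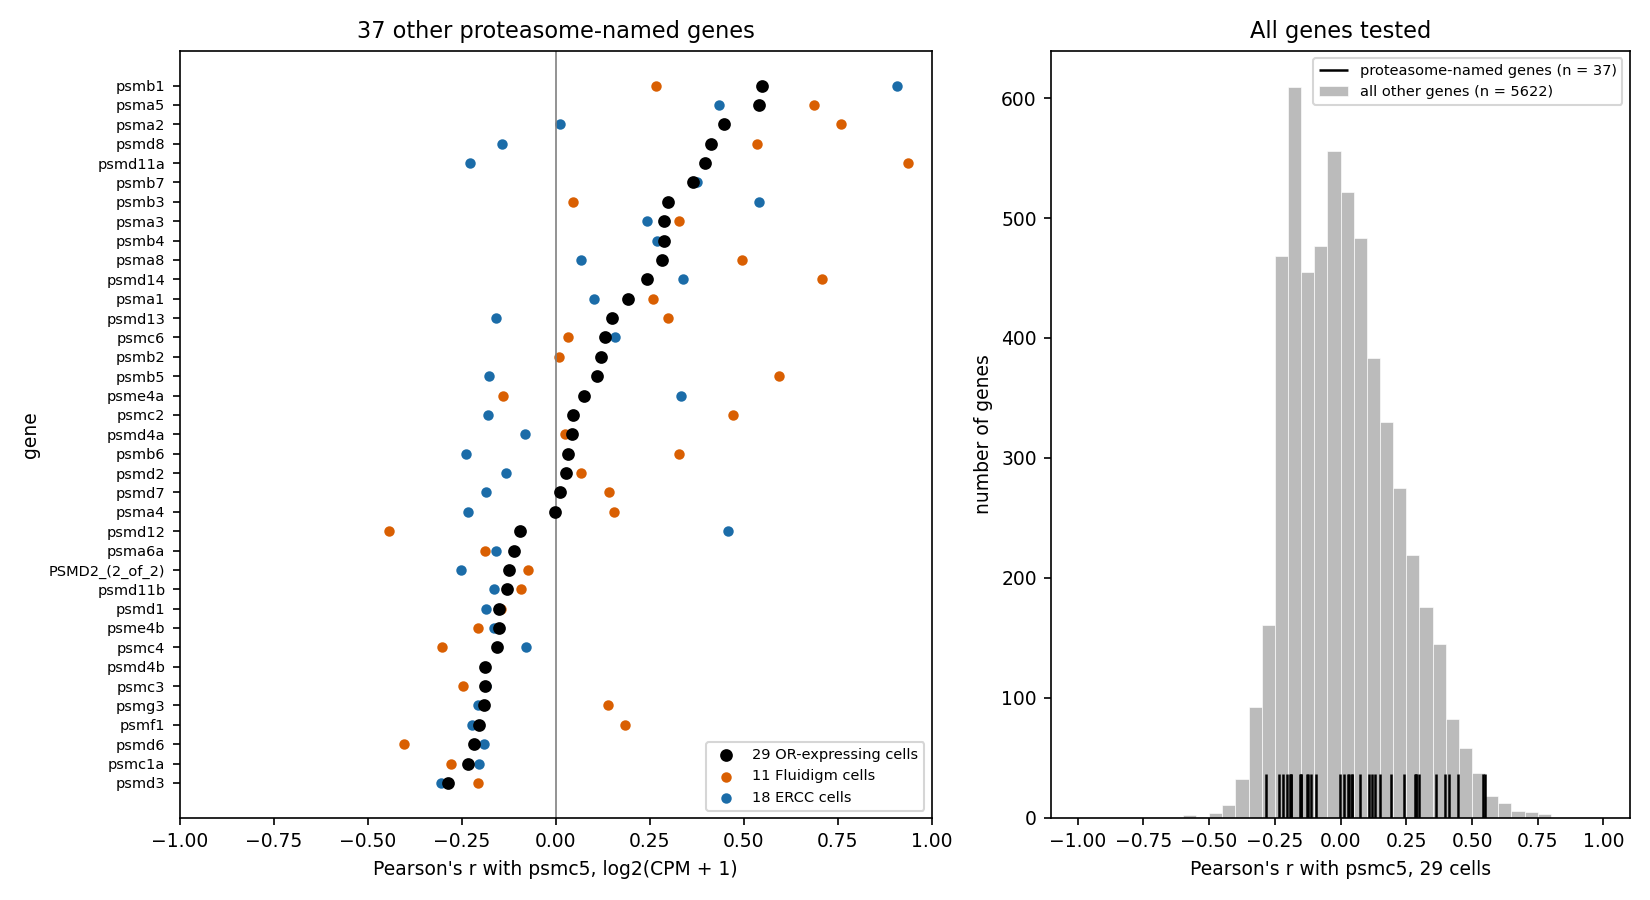
Pearson's r of each of 37 proteasome-named genes with psmc5 on log2(CPM + 1), in 29 OR-expressing cells (black) and within the Fluidigm (orange) and ERCC (blue) cells, beside the distribution of r over all 5622 other genes tested, with the members as ticks. The members spread on both sides of 0, with a median of 0.043, inside the distribution of all genes.

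In bulk, psmc5 measured 112, 177 and 224 CPM (171 ± 56.2, SD, n = 3). No bulk library was selected for clade B or C, so these values give no clade comparison. Each bulk library pooled about 1000 cells, so presence of several members in it does not show that a cell held them together. The 3 libraries had reads of 47, 53 and 53 of the 57 members, where 39.2%, 58.1% and 63.6% of all genes had reads. All 7 ATPase genes and all 7 constitutive beta genes reached 10 counts in each library. The summed level was 4703, 5107 and 5827 CPM (5212 ± 570, SD, n = 3). Some members varied little, such as psmb7 at 311, 309 and 318 CPM, psma3 at 259, 261 and 252 CPM and psmd4a at 71.3, 70.4 and 76.5 CPM. Others separated bulk replicate 1 from the rest: psma2 had 9.43, 197 and 138 CPM, psma8 had 12.4, 186 and 212 CPM and psmd6 had 6.41, 92.2 and 124 CPM, while psmc1a went the other way with 411, 70.4 and 40.8 CPM. Replicate 1 also had the fewest counts and the fewest genes (11377, against 16881 and 18457 in replicates 2 and 3), and the part of this in its values was not tested. The bulk libraries also held epithelial genes: the 5 listed (krt4, krt5, krt8, epcam, cdh1) summed to 3098, 6698 and 3210 CPM. Of these, epcam and cdh1 were also common in the single cells. krt4 and krt8 had a median of 0 CPM over cells, but were held by 5 and 4 cells and reached 2106 and 571 CPM. Only krt5, with 198, 374 and 193 CPM in bulk, was near absent from the cells (at most 0.538 CPM). The part of other cell types in the bulk levels was not tested. The median coefficient of variation was 0.703 over 54 members of at least 1 CPM on average, against 0.895 over 15257 genes. Some genes present in few cells were present in each bulk library: psma6b, held by 6 of 47 cells, measured 411, 309 and 310 CPM, and psme2, an activator gene held by 2 of 47 cells, measured 149, 96.8 and 91.9 CPM.

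The immune-type genes were near absent. No cell held any of the 6 at 100 reads, and the highest value in a cell was 4.81 CPM, of psmb11b. psmb10 and psmb9a were listed at 0 in all 50 libraries, where 3 reads would correspond to 1.13 CPM in the shallowest bulk library. psmb8, the inducible counterpart of psmb5, measured 0.377, 0 and 23.9 CPM in bulk replicates 1, 2 and 3. Leukocyte genes (7 of 7 listed, such as ptprc, coro1a and lyz) summed to 34.7, 53.4 and 610 CPM in the same replicates and haemoglobin genes (4 of 4) to 45.2, 9.44 and 8238 CPM, so the library with psmb8 was the one with most of both, and their part in psmb8 was not tested. In the cells the leukocyte genes had class medians of 0.345 CPM or less, and 5 of 7 were below 1 CPM in every cell. The exceptions, ptprc and lyz, were held by 4 cells each and reached 428 and 810 CPM. Haemoglobin genes were also found in some cells, such as hbbe1.1, held by 9 cells and reaching 647 CPM.

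**Figure D5:**
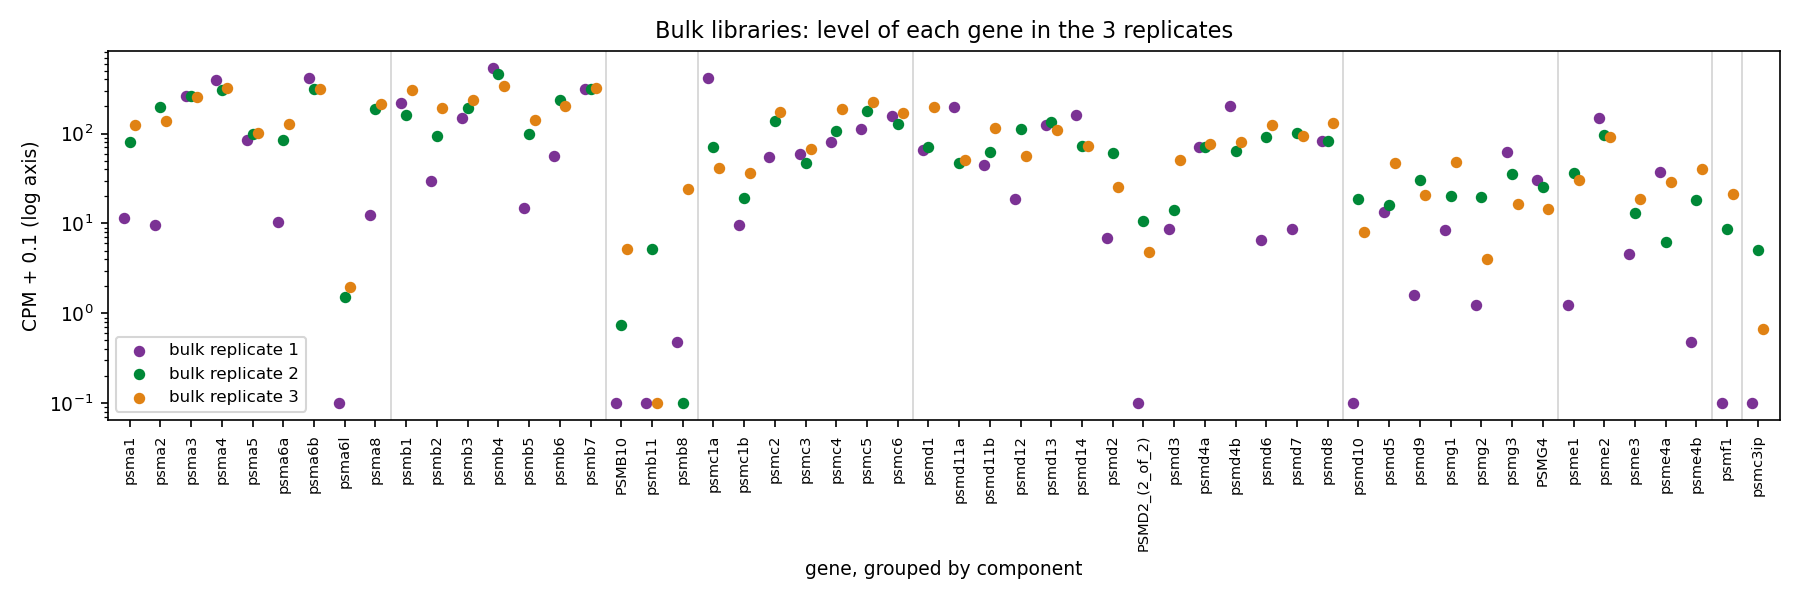
Level of each member above 0 in bulk (CPM + 0.1, log axis) in the 3 bulk replicates, by component. psmb7, psma3 and psmd4a nearly coincide across replicates, whereas psma2, psma8 and psmd6 are low and psmc1a is high in replicate 1.

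Genes that work beside the proteasome but carry other names were taken as a list of 30 ubiquitin-proteasome genes, 26 of them in the tables. None was called in edgeR in any of the 5 contrasts. In the order of the contrasts above, 0, 1, 1, 1 and 0 of them had an unadjusted edgeR p under 0.05. Of all genes, 5.05%, 5.19%, 5.51%, 2.19% and 1.01% did. The median log2 fold change of the list was 1.07 for clade A over clades B and C (15 of 21 positive), -0.065 for clade B and 0.20 for clade C over the other clades, -0.59 for OR cells over immature-like cells and 0.014 for OR-negative over OR cells. In the same order the median of all genes was 0.33, 0.26, 0.33, 1.65 and -0.55. The summed level of the list per cell had medians of 8458 CPM (3090 to 15718) for clade A, 4933 CPM (1569 to 10028) for clade B and 5620 CPM (3394 to 8860) for clade C, with overlapping ranges. Heat shock genes, which encode chaperones of protein folding, had median sums of 29461 CPM (clade A), 14351 CPM (clade B) and 12148 CPM (clade C). Their ranges overlapped widely, at 1630 to 54266 CPM, 5510 to 51639 CPM and 4535 to 47785 CPM. None of the 12 tested was called in edgeR. For clade A, 2 had an unadjusted p under 0.05, DNAJA4 and hsph1, where 5.05% of all genes did. The study had listed DNAJA4 as a clade A gene on these same cells, so its p carries no weight.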

How the data were processed

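Per the labels, 47 single OSNs and 3 bulk samples were amplified with SMARTer chemistry and Nextera libraries were sequenced. The study describes SMARTer only for the single cells, and for bulk an amplification primed by oligo-dT joined to a T7 promoter. Bulk and cells may thus differ in chemistry, which is not settled. The submitters' processing notes name CASAVA 1.8.2, STAR, HTSeq and the GRCz10 build. The study's methods name VERSE as the counter, and which of them made the tables is not settled. The authors deposited raw read counts per gene in a single-cell and a bulk table. No gene sequence was used. Members, gene lists and cell classes were chosen with earlier results of these data known. CPM (counts per library total, scaled to a common total) used all counts of a library. Cells were classed by marker counts, and the spike-in set was taken as the chip run, which the sources do not state. Counts were summed by class and set and fitted with edgeR 4.0.16 (R 4.3.3, quasi-likelihood test, TMM scaling, Benjamini-Hochberg adjustment over all genes tested) on 6 sums per fit, 1 fit of the 3 clades and 1 of the 3 maturity classes, so a p-value rests on 2 sums per class. The common dispersion was 3.56 and 3.89. DESeq2 1.42.0 was an alternative. The routines were tested on simulated data. Named members were psmc5, the other ATPase genes, the catalytic and immune-type genes, the 5 with the largest change of one sign in both sets per contrast, and the 5 highest and lowest in r with psmc5. Genes outside this rule were named after their values were seen. The planned fit had no block for the set, although the sums of one set share a spike-in mix, so the blocked values are given where they differ. Their deviations from the class means correlated at 0.078 to 0.11 in the clade fit and 0.12 to 0.23 in the maturity fit. Correlations used Pearson's r on log2(CPM + 1). Values of 100 counts or more were read as held.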

Additional observations from a re-analysis of the deposited data

Results flagged for a closer look

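Several psmc5 values stood far from the rest of their class. In clade A the cell s18930 had 969 CPM, in clade B the cell s20565 had 19.1 CPM, and among immature-like cells s23543 had 55.8 CPM. The immature-like cell s20535 was likewise far above its class in the summed level of all members, at 15958 CPM. Such a gap is met by chance in about 1 of 20 groups when values follow a normal distribution, and 12 combinations of class and quantity were examined. Most psmc5 values lay at or near 0 with rare high ones, so that rate need not hold for them. The 13 OR-negative cells were not examined by this rule, although s23566 among them had 2429 CPM of psmc5.

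In the remaining results the 2 spike-in sets moved in opposite directions, and the difference between the sets was not tested. Such a comparison was made for 15 values. For clade A over clades B and C, the log2 difference of the summed level was 0.59 in Fluidigm and -0.22 in ERCC cells, and the median over members was 1.01 and -1.57. The median over members for clade C over clades A and B was -3.50 and 0.14. For OR cells over immature-like cells it was 2.24 and -0.44. For OR-negative over OR cells it was -0.29 and 0.43, and psmc5 differed by -5.73 and 3.80. Both psmc5 values leaned on single cells. Fluidigm cells with an OR averaged 104 CPM of psmc5, but 17.1 CPM without the cells low in mature OSN genes, s18930 among them. Among ERCC cells without an OR, s23566 had 2429 CPM and the next highest, s23575, had 0.110 CPM.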

How the results depend on the processing

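edgeR called no member in any of the 5 contrasts under any of its settings. Since gap43, which helped define the immature-like class, was not called either, an absent call does not show an absent difference. DESeq2 called 7, 4 and 8 members for clades A, B and C, 8 for OR cells over immature-like cells and 9 for OR-negative over OR cells. In the same order it called 14.2%, 17.5%, 16.6%, 16.1% and 6.83% of all genes. The members called for clades A and C include psmc5, which the study chose on these cells. The cause of the gap between the tools was not tested. Leaving out 1 sum of cells at a time kept 0 calls in all 5 contrasts (0 to 0) but moved the median log2 fold change of members from -2.72 to 2.02 for clade A, -4.17 to 1.23 for clade B, -4.59 to 2.27 for clade C, -1.55 to 3.70 for OR over immature-like cells and -0.52 to 1.56 for OR-negative over OR cells, so each of these ranges held both signs. With the spike-in set as a replicate block no call at an adjusted p of 0.05 changed, but the member medians were 1.35 for clade A, -1.38 for clade B, -0.99 for clade C, 0.87 for OR over immature-like cells and 0.53 for OR-negative over OR cells, so those of clade C and of OR over immature-like cells changed sign. With no filter the median for OR over immature-like cells was 0.93. With DESeq2 size factors, in edgeR or in DESeq2, the median was -2.96 for OR over immature-like cells and 3.75 for OR-negative over OR cells, where the median of all genes went to 0.10 and 0.56 in place of 1.65 and -0.55. Relative to all genes the members stayed on the same side. The last of these medians was 0.24 with no filter and -1.33 without the cells low in mature OSN genes, a setting chosen after seeing the data. The median r with psmc5 ran from -0.16 to 0.14 over the settings.

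Since the study chose psmc5 as a clade A gene on these same cells, the sign of its clade A difference carries no weight by itself. The psmc5 log2 fold change was above 0 for clade A over clades B and C in every setting. For clade B over clades A and C it turned to -0.076 with no filter, -1.67 with the replicate block, -0.18 without cells with 2 abundant ORs and -3.55 without the cells low in mature OSN genes, and ran from -8.63 to 1.07 over left-out sums. For OR-negative over OR cells it turned to 0.78 with DESeq2 size factors, in edgeR and in DESeq2, 0.052 with no filter, 0.84 with cells scaled to equal totals, 0.16 with immature-like cells from 5 CPM and 2.13 without the cells low in mature OSN genes, and ran from -6.74 to 2.80 over left-out sums. In the same contrast psmd2 turned to -1.56 without the low cells and ran from -0.28 to 8.69 over left-out sums, and psmf1 ran from -15.97 to 0.92. psmc3 for clade C ran from -2.54 to 11.89 and psmd9 for OR over immature-like cells from -3.84 to 16.75.

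With 10 counts in place of 100, a tested member was held by a median of 12.5 cells in place of 9. The summed bulk level ran from 4905 to 5467 CPM over left-out libraries and was 4889 with DESeq2 size factors.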
